A study of Homo sapiens with 6 samples.

Results

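The 10 genes described here mark or drive the epithelial and mesenchymal states of carcinoma cells. They are the mesenchymal structural genes VIM, CDH2 and FN1, the transcription factors ZEB1, ZEB2, SNAI1, SNAI2 and TWIST1, and the epithelial splicing regulators ESRP1 and ESRP2. They were chosen by name, and all 10 had a row among the 19912 gene rows of the deposited mRNA table. RNA had been sequenced from 6 libraries, all labelled as Panc-1, a pancreatic ductal carcinoma line, and as gemcitabine resistant (gemcitabine is a nucleoside drug). The treatment label is shSRSF3 for 3 libraries, which their titles give as a knockdown of the splicing factor SRSF3, and ctrl for the other 3. Nothing in the labels says whether replicates were separate cultures or how many clones the line holds, so the p-values below measure only the spread between these libraries. Values are FPKM, fragments scaled to the gene's length and to the library's total. Levels of different genes are set side by side, although some rows of genes that every cell uses were low, as given below. The totals recovered from the steps in the values ran from 24558238 to 27351642 fragments per library.

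Epithelial cells hold on to one another through E-cadherin (CDH1) and rest on a keratin skeleton. In an epithelial-mesenchymal transition, repressors of the ZEB, SNAI and TWIST families bind E-box sequences and silence such genes, while vimentin, N-cadherin and fibronectin come up. ESRP1 and ESRP2 bind RNA and keep the epithelial exons of transcripts such as those of FGFR2, CD44, ENAH and CTNND1, and ZEB1 is known to repress them. ZEB1, ZEB2 and the microRNAs of the miR-200 family repress each other in a double-negative loop.

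The targeted gene checks the labels. SRSF3 stood at 36.9, 37.1 and 38.6 FPKM in the libraries labelled shSRSF3, against 37.0, 39.6 and 39.2 FPKM in those labelled ctrl. These groups overlapped, and the log2 difference was -0.04 (SE 0.05; adjusted p = 0.612, limma). No fall of SRSF3 RNA was thus detected, and the groups are called below by their labels. The label Panc-1 was checked against marker genes. Of 13 duct and carcinoma line markers, 12 had a mean of at least 0.5 FPKM, among them KRT8, KRT18, KRT19, SOX9 and GATA6, and KRT7 averaged 0.166 FPKM. Panc-1 is generally described as a line that carries vimentin, N-cadherin and ZEB1, but their rows were at or near 0 here, as given next. These markers therefore do not establish which line was used, and Panc-1 is given here only as the label. Markers of fibroblasts, endothelium and blood were low too, with 18 of 20 under a mean of 0.5 FPKM and the smooth muscle actin gene ACTA2 the highest at 3.38 FPKM. Their summed level in the libraries labelled shSRSF3 lay within 3.63 to 3.80 FPKM for 11 fibroblast genes, against 3.52 to 4.22 FPKM in those labelled ctrl.

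**Figure D1:**
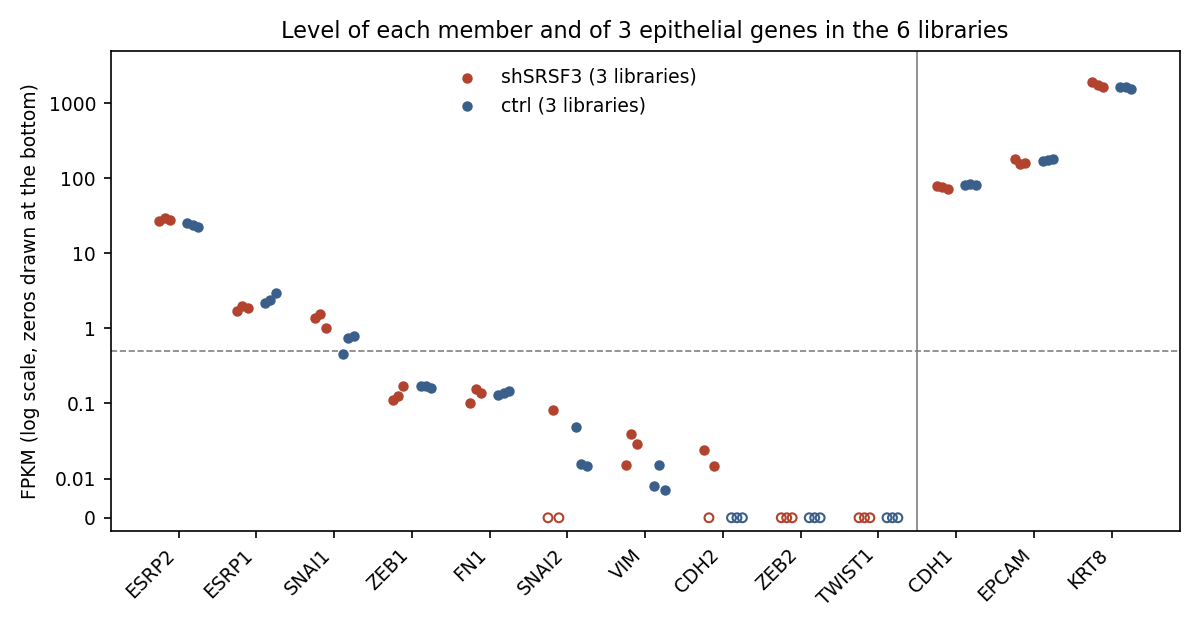
FPKM (vertical log axis, zeros drawn as open circles at the bottom) of the 10 members and, right of the line, of 3 epithelial genes. Each point is 1 library, red for shSRSF3 and blue for ctrl, and the dashed line marks 0.5 FPKM. ESRP2 leads the members at 22.8 to 29.8 FPKM, 7 members lie below the dashed line, and KRT8 exceeds 1500 FPKM in every library.

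Among the structural genes, VIM, which encodes the intermediate filament vimentin, had 0.0151, 0.0389 and 0.0284 FPKM in the libraries labelled shSRSF3, against 0.00789, 0.0152 and 0.00709 FPKM in those labelled ctrl. These values are 2, 5 and 4 fragments in the libraries labelled shSRSF3, and 1, 2 and 1 in those labelled ctrl. The groups overlapped by a narrow margin, with p = 0.2 in an exact two-sided permutation test, which cannot go below 0.1 with 3 against 3. CDH2, which encodes N-cadherin, had 0.0237, 0 and 0.0148 FPKM in the libraries labelled shSRSF3, or at least 3, 0 and 2 fragments. It was listed at 0 in all 3 labelled ctrl (exact permutation p = 0.4). FN1, which encodes the matrix protein fibronectin, had 0.101, 0.155 and 0.138 FPKM in the libraries labelled shSRSF3, against 0.129, 0.138 and 0.146 FPKM in those labelled ctrl. The FN1 groups overlapped (exact permutation p = 0.8), from 45 to 69 fragments per library.

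Among the repressors, ZEB1 had 0.113, 0.125 and 0.169 FPKM in the libraries labelled shSRSF3, against 0.169, 0.172 and 0.161 FPKM in those labelled ctrl. These correspond to between 25 and 40 fragments per library, and the groups overlapped (exact permutation p = 0.2). Its relative ZEB2 and the basic helix-loop-helix factor TWIST1 were listed at 0 in all 6 libraries. SNAI2, also called Slug, was listed at 0, 5 and 0 fragments in the libraries labelled shSRSF3 and at 3, 1 and 1 in those labelled ctrl (exact permutation p = 1). In order of mean level the members ran ESRP2, ESRP1, SNAI1, ZEB1, FN1, SNAI2, VIM, CDH2, with ZEB2 and TWIST1 last. The ranges of ZEB1 and FN1 overlapped, as did those of SNAI2, VIM and CDH2, whereas ESRP2, ESRP1 and SNAI1 were separate from each other and from the rest.

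A row near 0 is not by itself proof of little RNA. Of 46 rows for proteasome and RNA polymerase II subunits, which every cell uses, 4 had a mean under 1 FPKM (PSMA2, PSMA6, PSMB3 and POLR2A), and PSMB3 was listed at 0 in 5 libraries. Antisense rows could share reads with the members. VIM-AS1 was above 0 in 1 library labelled ctrl (0.0589 FPKM) and listed at 0 in the other 5, and ZEB2-AS1 was listed at 0 throughout. ZEB1-AS1 stood above ZEB1 itself, with 0.657 ± 0.144 FPKM in the libraries labelled shSRSF3 and 0.555 ± 0.069 FPKM in those labelled ctrl (SD, n = 3 each; limma adjusted p = 0.831). Of the members 7 of 10 had a mean under 0.5 FPKM, as did 12 of 28 other mesenchymal markers (42.9%), 6 of 13 other factors of the transition (46.2%) and 1 of 33 epithelial markers. Of all rows 45.6% were under it, so the shares of the other mesenchymal markers and factors were near that of the whole table.

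The miR-200 family is shown because its members are the known partners of ZEB1 and ZEB2 and fall into a pair of seed groups, read here from RefSeq (GRCh38.p14) with the seed, bases 2 to 8, in capitals. All 5 matched by name.
miR-200b-3p: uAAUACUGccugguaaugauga
miR-200c-3p: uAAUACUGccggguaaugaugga
miR-429: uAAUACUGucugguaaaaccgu
miR-200a-3p: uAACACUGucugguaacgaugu
miR-141-3p: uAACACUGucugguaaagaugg
The first 3 share the seed AAUACUG and the last 2 share AACACUG, 1 base apart. Mature microRNAs were not measured in these files. MIR200CHG, the host transcript of miR-200c and miR-141, had 2.01, 2.18 and 1.78 FPKM in the libraries labelled shSRSF3, against 3.37, 2.01 and 2.09 FPKM in those labelled ctrl. One library labelled ctrl stood above the other 5, the groups overlapped, and the row rests on 17 to 29 fragments per library (log2 change -0.28, limma adjusted p = 0.732). Without that library, ctrl library 1, the log2 change was -0.05.

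ZEB and SNAI proteins are known to bind the E-box CACCTG, whose reverse complement is CAGGTG. Promoter windows of 300 bases (250 before to 50 after the annotated start) were given by RefSeq for 5 of the 10 members: VIM, ZEB1, ZEB2, CDH2 and FN1. On either strand the motif occurred in 2 of their 12 windows (16.7%), near the 20.6% of all 35116 windows. Both were among the 7 windows of ZEB1, the member with the most. The ZEB1 window with 3 matches (GRCh38.p14, chr10:31318966-31319265, plus strand) is shown because it holds the letters that SNAI1 and ZEB1 themselves read. The matches, in capitals, begin 242 and 85 bases before and 33 bases after the start.
ZEB1 promoter window: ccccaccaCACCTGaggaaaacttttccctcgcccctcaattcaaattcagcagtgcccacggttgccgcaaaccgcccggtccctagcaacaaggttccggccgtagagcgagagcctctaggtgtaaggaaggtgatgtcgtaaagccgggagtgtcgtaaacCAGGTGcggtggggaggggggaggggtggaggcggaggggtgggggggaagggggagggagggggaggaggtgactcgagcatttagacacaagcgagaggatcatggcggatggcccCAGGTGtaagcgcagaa
A match is a run of letters and not a measured binding site.

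Of the 10 members, 3 reached the mean of 0.5 FPKM needed for the test across the table, and 7 did not. All 3 that were tested passed it: SNAI1 and ESRP2 were higher and ESRP1 lower in the libraries labelled shSRSF3. In the same fit 16.8% of 10823 genes passed, 10.9% higher and 5.91% lower, so that 64.8% of the calls were higher; with quantile normalization that share was 50.3%. These calls depended on the setting: 0 members passed with no filter on low values, against 5.88% of all genes, and 0 without shSRSF3 library 2, against 7.78%. Without ctrl library 2 or 3 only SNAI1 passed, against 5.95% and 5.98% of genes.

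SNAI1, the zinc-finger repressor called Snail, had 1.37, 1.55 and 1.02 FPKM in the libraries labelled shSRSF3, against 0.459, 0.743 and 0.781 FPKM in those labelled ctrl. Every library labelled shSRSF3 lay above every library labelled ctrl. The groups failed to overlap in 37.9% of all genes tested. The values come from 59, 65 and 47 fragments in the libraries labelled shSRSF3, against 19, 32 and 36 in those labelled ctrl. SNAI1 averaged 1.31 ± 0.268 FPKM in the libraries labelled shSRSF3 and 0.661 ± 0.176 FPKM in those labelled ctrl (SD, n = 3 each), a ratio of means of 1.99. On the log2(FPKM + 1) scale, which understates the change of low genes, the difference was 0.48 (SE 0.10, 95% interval 0.25 to 0.70, limma adjusted p = 0.0128). With a pseudocount of 0.1 in place of 1 it was 0.90. The call was lost without shSRSF3 library 2 (adjusted p = 0.0537) and with no filter on low values (0.0579). In such bulk RNA, more cells that express SNAI1 and more RNA per cell cannot be told apart. In its higher group SNAI1 was still below ESRP1 and ESRP2 in FPKM.

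ESRP1 had 1.72, 2.02 and 1.87 FPKM in the libraries labelled shSRSF3, against 2.18, 2.41 and 2.97 FPKM in those labelled ctrl. The groups did not overlap, as in 37.9% of all genes tested, and ctrl library 3 lay farthest from the rest. ESRP1 averaged 1.87 ± 0.148 FPKM in the libraries labelled shSRSF3 and 2.52 ± 0.407 FPKM in those labelled ctrl (SD, n = 3 each), from 215 to 396 fragments per library. The log2 difference was -0.29 (SE 0.09, 95% interval -0.48 to -0.10, limma adjusted p = 0.043). Leaving out any single library other than ctrl library 1 ended the call, with adjusted p of 0.0974, 0.0716 and 0.0559 without shSRSF3 libraries 1, 2 and 3 and 0.0940 and 0.167 without ctrl libraries 2 and 3. Quantile normalization (0.0691) and no filter (0.125) ended it too.

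ESRP2, by far the more abundant paralog, had 27.2, 29.8 and 28.0 FPKM in the libraries labelled shSRSF3, against 25.7, 24.0 and 22.8 FPKM in those labelled ctrl. The groups did not overlap, which was true of 37.9% of all genes tested. ESRP2 averaged 28.3 ± 1.31 FPKM in the libraries labelled shSRSF3 and 24.2 ± 1.46 FPKM in those labelled ctrl (SD, n = 3 each), from 3418 to 4247 fragments per library. The log2 difference was 0.22 (SE 0.06, 95% interval 0.09 to 0.35, limma adjusted p = 0.0272). The call was lost without shSRSF3 library 2 (adjusted p = 0.101), without ctrl libraries 2 and 3 (0.102 and 0.122), with quantile normalization (0.0762) and with no filter (0.0661).

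**Figure D2:**
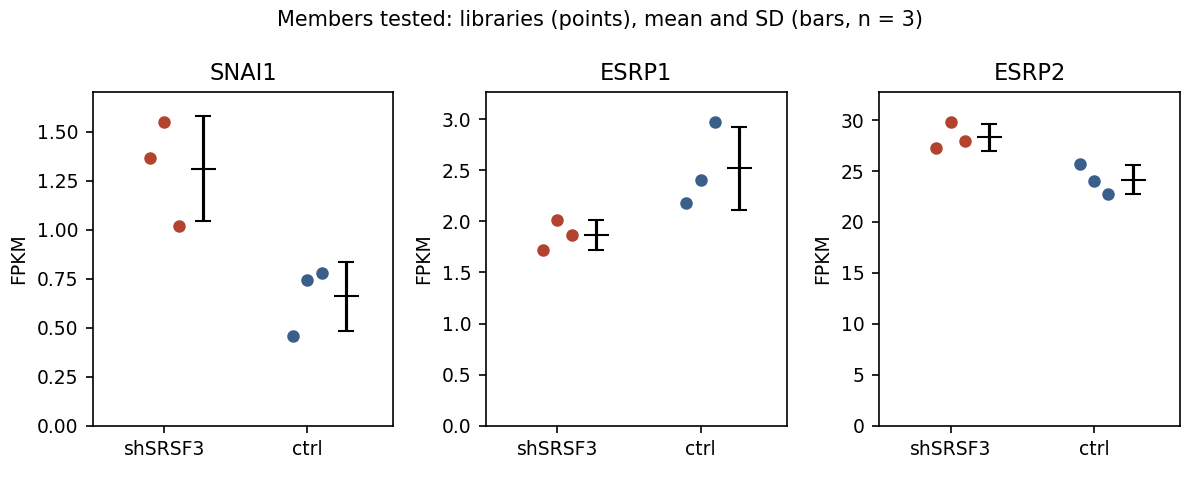
FPKM of SNAI1, ESRP1 and ESRP2 in the 3 shSRSF3 and 3 ctrl libraries (points), with the mean and SD of each group beside them; the vertical axes start at 0 and differ between panels. In each panel the points of the groups do not overlap, as in 37.9% of all genes tested. SNAI1 and ESRP2 are higher and ESRP1 lower in the libraries labelled shSRSF3.

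The paralogs thus differed in opposite directions. The ratio of ESRP2 to ESRP1 in FPKM was 15.8, 14.8 and 14.9 in the libraries labelled shSRSF3, against 11.8, 9.98 and 7.67 in those labelled ctrl, a pattern picked after the values were seen and given without a test. Their summed level was 29.0, 31.8 and 29.8 FPKM in the libraries labelled shSRSF3, against 27.9, 26.4 and 25.7 FPKM in those labelled ctrl. ESRP2 made up between 93.7% and 94.1% of that sum in the libraries labelled shSRSF3, against 88.5% to 92.2% in those labelled ctrl. The summed level did not overlap between the groups and followed ESRP2, the larger part of it.

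**Figure D3:**
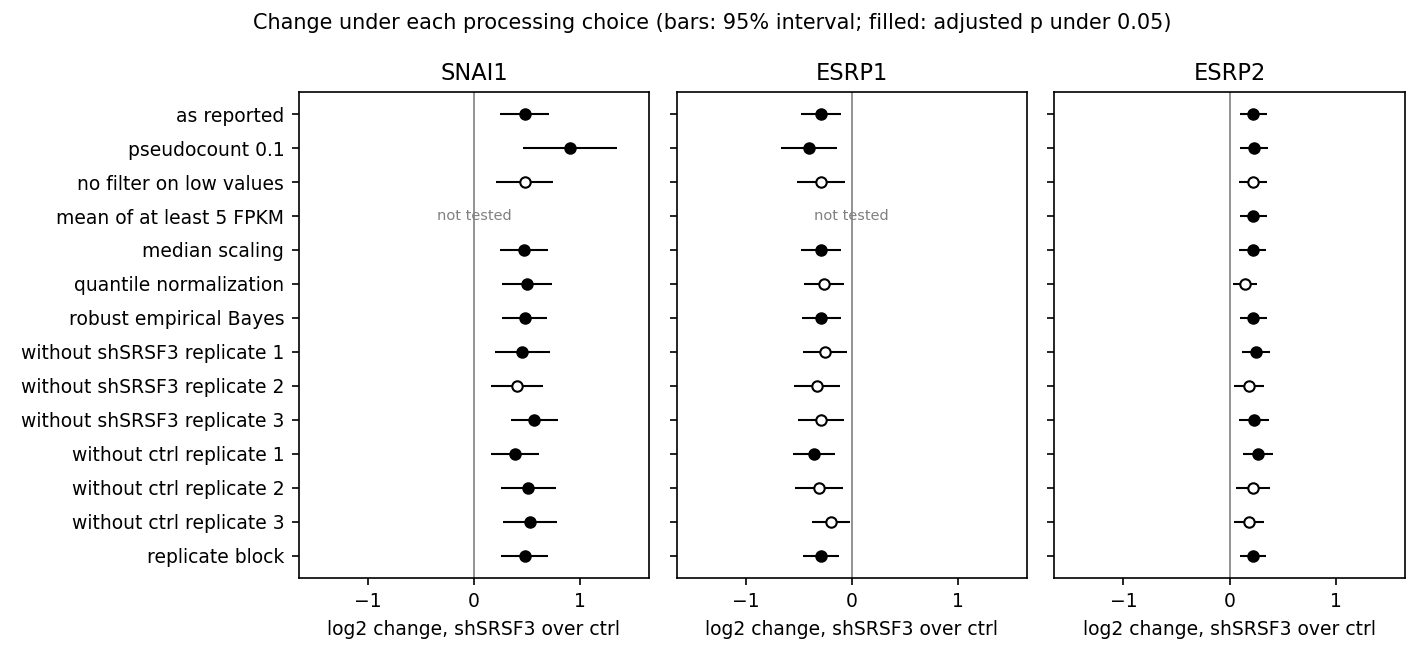
Log2 change of SNAI1, ESRP1 and ESRP2, shSRSF3 over ctrl, under the reported fit and each alternative (rows), with 95% intervals; filled points passed an adjusted p of 0.05. All points of a gene lie on the same side of 0, from 0.39 to 0.90 for SNAI1, -0.40 to -0.20 for ESRP1 and 0.15 to 0.26 for ESRP2.

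Genes that the ESRP proteins are known to splice showed little change at the gene level. Of 20 tested, the cortactin gene CTTN alone passed, with 51.1 ± 2.08 FPKM in the libraries labelled shSRSF3 and 45.2 ± 0.665 FPKM in those labelled ctrl (SD, n = 3 each; log2 0.17, limma adjusted p = 0.0353). Its call was lost without shSRSF3 libraries 1 and 2 (0.0606 and 0.0957), without ctrl libraries 1, 2 and 3 (0.105, 0.115 and 0.129) and with quantile normalization (0.107). The list's median log2 change was 0.01, against 0.02 over all genes tested, of which 16.8% passed. Such values sum all isoforms of a gene and do not show which exons were used. FGFR2, whose epithelial exon is the classic ESRP target, averaged 0.301 ± 0.076 FPKM in the libraries labelled shSRSF3 and 0.283 ± 0.025 FPKM in those labelled ctrl (SD, n = 3 each), under the filter.

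Of 19 tested other splicing regulators tied to the transition, 1 was higher and 1 lower, with a median of 0.04. The share of all genes tested that passed was 16.8%. PTBP1, a repressor of exons, rose (log2 0.28, limma adjusted p = 0.0115), a call lost without shSRSF3 library 2 (0.0507) or ctrl libraries 2 and 3 (0.0635 and 0.0625). HNRNPH1, which binds G-rich RNA, fell by 0.38 on the log2 scale (limma adjusted p = 0.0379), a call lost without shSRSF3 libraries 2 and 3 (0.125 and 0.0688) or ctrl libraries 1 and 3 (0.113 and 0.147) and with quantile normalization (0.0651). Its groups overlapped.

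The epithelial genes stood high in both groups. CDH1 had 79.5, 75.5 and 71.4 FPKM in the libraries labelled shSRSF3, against 82.5, 83.5 and 81.0 FPKM in those labelled ctrl. The groups did not overlap, but CDH1 did not pass (log2 -0.13, limma adjusted p = 0.128); it did with quantile normalization (0.00316) and without shSRSF3 library 1 (0.043). EPCAM, a surface adhesion protein, had 180.3, 153.5 and 159.7 FPKM in the libraries labelled shSRSF3, against 171.2, 176.3 and 180.7 FPKM in those labelled ctrl, with overlapping groups (limma adjusted p = 0.316; it passed with quantile normalization, 0.0210, and without shSRSF3 library 1, 0.0430). KRT8 and KRT18, the keratin pair of simple epithelium, averaged 1760 and 1733 FPKM in the libraries labelled shSRSF3, against 1613 and 1391 FPKM in those labelled ctrl, without passing (limma adjusted p = 0.361 and 0.0923). KRT18 did pass without shSRSF3 library 3 (0.0190) and with a replicate block (0.0404). GRHL2, a factor that sustains epithelial genes, averaged 6.38 ± 0.217 FPKM in the libraries labelled shSRSF3 and 6.70 ± 0.481 FPKM in those labelled ctrl (SD, n = 3 each; limma adjusted p = 0.540).

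Of 32 tested epithelial markers, 4 fell and 0 rose, with a median log2 change of -0.01. Over all genes tested, 5.91% passed as lower and 10.9% as higher, 16.8% in either direction. At an unadjusted p under 0.05 the markers went both ways, with 7 higher and 6 lower, and their 13 of 32 stand beside 33% of all genes tested. ELF3, an epithelial ETS factor, fell to 1.36 ± 0.104 FPKM in the libraries labelled shSRSF3, against 2.76 ± 0.116 FPKM in those labelled ctrl (SD, n = 3 each; log2 -0.67, limma adjusted p = 1.99e-04). The receptor gene ERBB3 fell by 0.34 on the log2 scale (limma adjusted p = 0.0072). The plakin gene EPPK1 fell by 0.28 (limma adjusted p = 0.0228), a call lost without shSRSF3 library 2 (0.0519) or ctrl libraries 1 and 2 (0.0766 and 0.0742). The claudin gene CLDN7 fell by 0.19 (limma adjusted p = 0.0322), a call lost without ctrl libraries 1, 2 or 3 (0.0888, 0.155 and 0.1003). With quantile normalization 8 markers fell and 0 rose, and without shSRSF3 library 3 the counts were 4 lower and 5 higher. Among 11 tested epithelial transcription factors, ELF3 and the pioneer factor FOXA1 fell and 0 rose (5 at an unadjusted p under 0.05, median -0.08). FOXA1 fell by 0.21 (limma adjusted p = 0.0364), a call lost without each library other than shSRSF3 library 3 (0.0710 to 0.111), and 3 factors fell with quantile normalization or median scaling. In contrast, 1 factor was higher without shSRSF3 library 3 (3 lower) and without ctrl library 1 (1 lower).

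On the mesenchymal side, 3 of 7 tested other factors of the transition rose and 0 fell, with a median of 0.02. Of all genes tested, 10.9% passed as higher and 5.91% as lower. At an unadjusted p under 0.05 there were 3 higher and 1 lower, RUNX2 (log2 -0.19, limma adjusted p = 0.0887). Without shSRSF3 library 3, and also with a replicate block, the counts were 3 higher and 1 lower. Without ctrl library 1 they were 1 higher and 0 lower. FOSL1, an AP-1 subunit, had 87.0, 77.7 and 71.0 FPKM in the libraries labelled shSRSF3, against 50.4, 49.0 and 45.8 FPKM in those labelled ctrl (log2 0.68, limma adjusted p = 4.27e-04). The forkhead gene FOXC1 rose by 0.30 (limma adjusted p = 0.0143), a call lost without shSRSF3 library 2 (0.0600) or ctrl library 1 (0.0540). The homeobox gene PRRX1 averaged 2.55 ± 0.261 FPKM in the libraries labelled shSRSF3 and 1.90 ± 0.101 FPKM in those labelled ctrl (SD, n = 3 each; log2 0.29, limma adjusted p = 0.0208), a call lost without ctrl libraries 1, 2 or 3 (0.0696, 0.0768 and 0.0524).

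Of 16 tested other mesenchymal markers, 3 were higher and 3 lower, with a median of 0.00131. These counts stand beside 10.9% higher and 5.91% lower among all genes tested. The actin-binding TAGLN had 2.88, 3.31 and 3.30 FPKM in the libraries labelled shSRSF3, against 1.80, 1.42 and 1.61 FPKM in those labelled ctrl (log2 0.68, limma adjusted p = 5.42e-04). PLAUR, the urokinase receptor, rose by 0.46 and the ecto-nucleotidase gene NT5E by 0.35 (limma adjusted p = 0.00314 and 0.00281). S100A4, a calcium-binding protein, averaged 3.88 ± 0.281 FPKM in the libraries labelled shSRSF3 and 5.50 ± 0.169 FPKM in those labelled ctrl (SD, n = 3 each; log2 -0.41, limma adjusted p = 0.00266). The matrix gene TNC and the membrane protease gene MMP14, named after their values were seen, fell by 0.29 and 0.28 (limma adjusted p = 0.00743 and 0.0114). These 6 calls held without each library in turn.

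**Figure D4:**
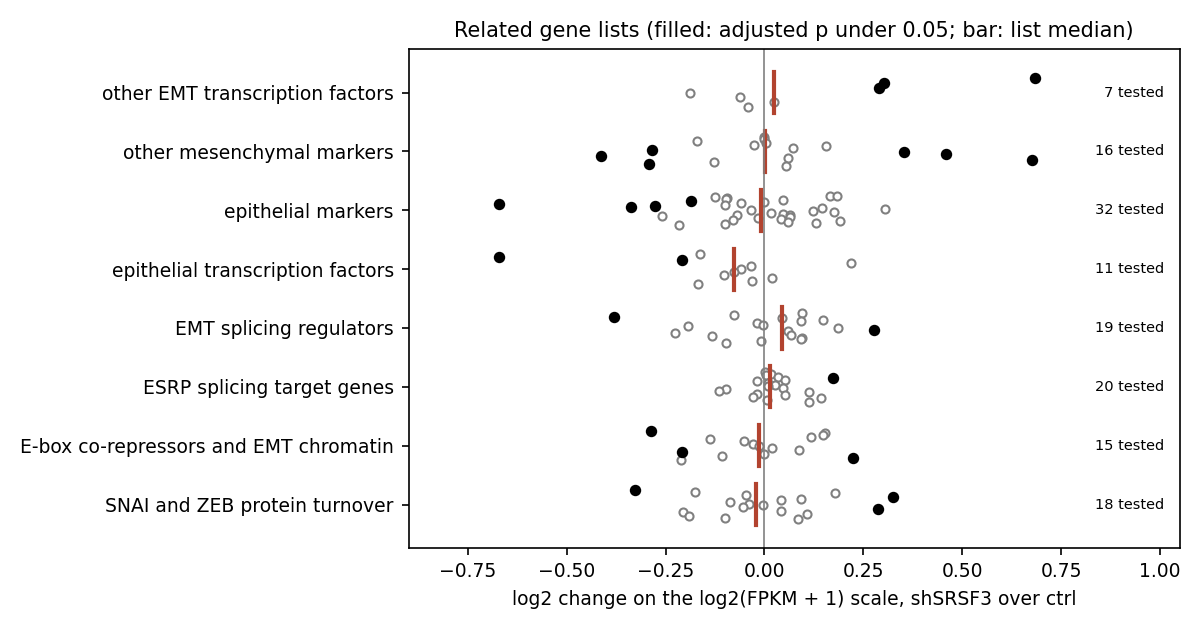
Log2 change (horizontal axis, log2(FPKM + 1) scale, shSRSF3 over ctrl) of each tested gene of 8 related lists; filled points passed an adjusted p of 0.05 and red bars are list medians. The medians lie between -0.08 and 0.04, with calls on both sides of 0 in 4 of the lists.

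Partners that carry out E-box repression went both ways, with 1 higher and 2 lower of 15 and a median of -0.01. Among all genes tested, 10.9% passed as higher and 5.91% as lower, to be set beside this list and the next. The SNAI-binding LIM proteins AJUBA and LIMD1 fell by 0.29 and 0.21 (limma adjusted p = 0.0139 and 0.0326) and the remodeller gene SMARCA4 rose by 0.22 (0.0456). AJUBA was lost without ctrl libraries 1 and 2 (0.0566 and 0.0565), LIMD1 without each library other than shSRSF3 library 3 (0.0599 to 0.129), and SMARCA4 without shSRSF3 libraries 1 and 2 or ctrl libraries 2 and 3 (0.1002 to 0.177). SMARCA4, whose groups overlapped, was also lost with median scaling (0.0548) and quantile normalization (0.114). Of 18 genes that control the stability of SNAI and ZEB proteins, 2 rose and 1 fell, with a median of -0.02; without shSRSF3 library 3 these counts were 3 and 4. The kinase genes CSNK1E and LATS2 rose by 0.33 and 0.29 (limma adjusted p = 0.00643 and 0.00743). The kinase gene ATM fell by 0.33 (limma adjusted p = 0.022), a call lost without shSRSF3 libraries 1 and 2 (0.0511 and 0.0696) or ctrl libraries 2 and 3 (0.0728 and 0.1003). ATM is a low gene, at 0.999 FPKM in the libraries labelled shSRSF3 and 1.51 FPKM in those labelled ctrl. With a pseudocount of 0.1 in place of 1, its log2 change was -0.55, and that of CSNK1E was 0.35.

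Among lncRNAs, 0 of 3092 rows tested (0%) passed limma (284 had an unadjusted p under 0.05). These rows include the 10 tested of 22 lncRNAs linked to the transition. Of those 10, 5 had an unadjusted p under 0.05, 1 higher and 4 lower, and the median log2 change of the 10 was -0.18. UCA1 had 11.7, 9.66 and 9.31 FPKM in the libraries labelled shSRSF3, against 5.95, 6.15 and 5.67 FPKM in those labelled ctrl. Its log2 change was 0.77 on the log2(FPKM + 0.1) scale (limma adjusted p = 0.0982). MALAT1, NEAT1 and LINC01133 were lower (log2 -0.53, -0.41 and -0.89 on that scale, limma adjusted p = 0.357, 0.399 and 0.443). UCA1 and these 3 were named because they had the smallest p of the list. LINC01133 rests on 9 to 39 fragments per library.

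The genes most like ESRP2 across the 6 libraries, by Pearson's r of log2(FPKM + 1) against 10822 others, were FAAP100, BANP and CASC10, each with r from 0.997 to 0.999. Those most like ESRP1 were SLC30A6, OSBPL9 and HINT2, with r from 0.993 to 0.996. With 6 libraries and so many genes such values are a description, and all points share the split into 2 labels.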

How the data were processed

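RNA-seq values of 6 libraries were used, 3 labelled shSRSF3 and 3 labelled ctrl. The authors deposited FPKM per gene symbol in an mRNA and a lncRNA table; per the submitters' processing notes HISAT2, StringTie, Cuffdiff and edgeR were used, with no role or version. No source used here gives the genome build, annotation or strand setting, so reads of overlapping antisense genes cannot be told apart. Per the labels' protocols both a poly(A) and an rRNA-depleted stranded preparation exist, and which gave the values is not given.

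Each table was tested apart with limma 3.58.1 in R 4.3.3 (lmFit, eBayes with trend, two-sided, Benjamini-Hochberg over all genes tested, threshold 0.05), mRNA rows as log2(FPKM + 1) where the mean reached 0.5 FPKM, lncRNA rows as log2(FPKM + 0.1) where it reached 0.1 FPKM. For members under the filter an exact permutation test (two-sided) was used. Whole fragments were recovered from the FPKM steps (1 total per library, 1 length per gene, within 0.003 fragments plus rounding of the deposited decimals) for 14776 of 14803 mRNA rows above 0 in at least 3 libraries; members above 0 and every other gene named with a change are on these steps. These fragments describe depth and entered no test. The shortest length that fitted was taken, so they are minimum counts, least certain for rows above 0 in few libraries, such as CDH2. The fits were also run on simulated counts drawn with the same spread in both groups. Replicate spread differed between the groups here, so no support is drawn from that run. Depth limits the low members: 1 fragment decides a value such as that of VIM or SNAI2.

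Members, lists and tests were chosen with earlier results of these data known. Named genes were the members, SRSF3, up to 4 of each list with the smallest p, 5 epithelial genes and the 3 genes most like each of the 2 highest members; subunit rows, antisense rows, FGFR2, ACTA2, KRT7 and other markers were named for their levels. Between replicates the chi-square of the fragments, per gene, was 7.77 to 22.5 among libraries labelled shSRSF3 and 3.13 to 5.43 among those labelled ctrl. The values of 13.3 and 22.5 were those of the pairs with shSRSF3 library 1. No library was thus a copy of another, but such values cannot tell separate cultures from repeated preparations of the same RNA. The alternatives were another pseudocount, no filter, a mean of at least 5 FPKM, median scaling, quantile normalization, robust empirical Bayes, leaving out every library in turn, and blocking by replicate number.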

Additional observations from a re-analysis of the deposited data

How the results depend on the processing

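SNAI1, ESRP1 and ESRP2 kept their direction in all 12, 12 and 13 alternatives that tested them and passed in 10, 5 and 8. The count of members called was 3 as reported, 0 with no filter on low values, 1 with a mean of at least 5 FPKM (ESRP2, the only member tested there), 1 with quantile normalization (SNAI1) and between 0 and 3 with 1 library left out, 0 without shSRSF3 library 2. The planned count model on the recovered fragments is not reported, since the deposited values are not counts. Of all mRNA genes tested, 1819 passed, 1179 higher and 640 lower; 960 did with no filter and between 643 and 2742 with 1 library left out. The share of calls that were higher was 64.8% as reported and 50.3% with quantile normalization (817 and 808 genes); the median change moved by less than 0.1 in each. The change of KRT8 was 0.12 as reported and -0.0033 with quantile normalization. With no filter 11 of the list genes named above also lost their call (adjusted p 0.0508 to 0.134). The cause of these differences was not tested.

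Libraries of the same replicate number correlated in their deviations at 0.0776, 0.0385 and 0.279, all above 0 but not all above 0.1, the bound set for pairing; shSRSF3 library 2 correlated best with ctrl library 1, at 0.153. No label pairs them. The replicate block left 3 members called, turned the epithelial markers to 4 higher and 5 lower and the epithelial factors to 1 higher and 3 lower, gave 2323 mRNA genes, and gave 1 lncRNA row, against 0 as reported and 0 without each library. Depth limits VIM, SNAI2 and CDH2, with 0 to 5 fragments per library.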
